A study of Homo sapiens with 4 samples.

Results

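The IFI-type interferon genes with *XAF1* and *RSAD2* are 10 protein-coding genes, *IFI6*, *IFI27*, *IFI35*, *IFI44*, *IFI44L*, *IFI16*, *XAF1*, *EPSTI1*, *RSAD2* and *CMPK2*. They were chosen by name from the 57820 genes of the count table, and each was found under 1 gene identifier. Expression was measured by RNA-seq in SK-N-SH, an established human neuroblastoma cell line that holds neuron-like (adrenergic) and flat (mesenchymal) cells. The vector control group had 2 libraries from cells carrying the empty lentivirus vector, and the OE group had 2 libraries from cells in which a lentivirus drove the long noncoding RNA *RP5-998N21.4* from the EF1a promoter, so that both groups went through lentiviral transduction. The labels give the control cells as wild type in genotype, and the sources used here give neither the time after transduction, nor whether a clone or a mixed population was grown, nor whether the 2 libraries of a group came from separate cultures, so the p-values measure only the spread between these libraries, which may be technical.

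Type I interferons bind a receptor at the cell surface, whose kinases JAK1 and TYK2 pass the signal to transcription factors by phosphorylation. STAT2 acts there together with IRF9, which binds interferon-stimulated response elements, repeats of the letters GAAA, in the promoters of interferon-stimulated genes. The genes described here are targets of that chain, and in cells of the nervous system, as elsewhere, they are known as part of the antiviral response. Their products act at different places in the cell. IFI6 and IFI27 are related small membrane proteins, IFI35 is a cytoplasmic protein that binds NMI, IFI44 and IFI44L are a related pair, and IFI16 is a sensor of DNA. XAF1 binds the apoptosis inhibitor XIAP and favours cell death, RSAD2 (viperin) is a radical SAM enzyme that makes an antiviral nucleotide, CMPK2 is a nucleotide kinase of mitochondria, and EPSTI1 was first described in epithelial cells grown with stroma.

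The promoters are shown first, because the members were read as 1 group and the response element is the sequence that such genes are known to share. RefSeq promoters (GRCh38.p14, from 250 bases before to 50 bases after a start site) were given for all 10 members, 17 promoters in all. Capitals mark the letters GAAANNGAAA (a GAAA repeat separated by 2 bases) or GAAANGAAA (separated by 1 base), searched on both strands, so that a match on the other strand reads TTTC. The spacing by 1 was added after the promoters had been seen, and matches of both kinds can overlap, as in *IFI44*. The first 2 sequences belong to the members with the smallest p-values, *XAF1* (chr17:6755796-6756095, plus strand) and *IFI6* (chr1:27672143-27672442, minus strand). *RSAD2* (chr2:6877527-6877826, plus) and *CMPK2* (chr2:6865770-6866069, minus) are neighbours that differed alike, and *IFI44* (chr1:78649539-78649838, plus) is 1 of the IFI44 pair. *IFI16* (chr1:159009657-159009956, plus) is the tested member whose expression was not higher, and *EPSTI1* (chr13:42992192-42992491, minus) is the member without counts.
XAF1: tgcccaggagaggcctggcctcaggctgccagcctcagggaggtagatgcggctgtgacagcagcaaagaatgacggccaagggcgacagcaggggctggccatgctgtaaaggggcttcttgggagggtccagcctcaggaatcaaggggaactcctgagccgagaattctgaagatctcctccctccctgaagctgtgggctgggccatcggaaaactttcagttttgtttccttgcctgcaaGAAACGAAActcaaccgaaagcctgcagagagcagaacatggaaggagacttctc
IFI6: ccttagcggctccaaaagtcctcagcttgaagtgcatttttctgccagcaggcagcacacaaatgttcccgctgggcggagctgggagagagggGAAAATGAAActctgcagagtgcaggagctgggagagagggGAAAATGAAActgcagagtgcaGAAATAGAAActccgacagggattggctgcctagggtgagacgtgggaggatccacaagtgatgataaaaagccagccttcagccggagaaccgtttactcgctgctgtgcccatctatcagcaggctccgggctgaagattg
RSAD2: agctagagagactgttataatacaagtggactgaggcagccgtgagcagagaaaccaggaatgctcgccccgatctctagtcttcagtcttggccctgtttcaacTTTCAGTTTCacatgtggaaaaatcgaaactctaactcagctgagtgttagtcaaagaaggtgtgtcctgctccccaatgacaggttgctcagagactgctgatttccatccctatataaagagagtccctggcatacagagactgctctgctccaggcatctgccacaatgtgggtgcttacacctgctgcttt
CMPK2: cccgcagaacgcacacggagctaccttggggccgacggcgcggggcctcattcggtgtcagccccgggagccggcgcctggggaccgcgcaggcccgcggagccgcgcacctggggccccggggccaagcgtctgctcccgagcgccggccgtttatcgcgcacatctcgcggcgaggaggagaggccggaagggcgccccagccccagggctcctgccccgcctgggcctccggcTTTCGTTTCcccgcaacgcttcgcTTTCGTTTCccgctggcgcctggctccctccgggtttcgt
IFI44: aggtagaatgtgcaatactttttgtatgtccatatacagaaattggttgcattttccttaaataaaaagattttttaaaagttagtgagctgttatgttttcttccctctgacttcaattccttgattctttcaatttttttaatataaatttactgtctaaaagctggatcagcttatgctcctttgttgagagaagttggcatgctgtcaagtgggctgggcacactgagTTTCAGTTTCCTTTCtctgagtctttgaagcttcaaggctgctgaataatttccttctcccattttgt
IFI16: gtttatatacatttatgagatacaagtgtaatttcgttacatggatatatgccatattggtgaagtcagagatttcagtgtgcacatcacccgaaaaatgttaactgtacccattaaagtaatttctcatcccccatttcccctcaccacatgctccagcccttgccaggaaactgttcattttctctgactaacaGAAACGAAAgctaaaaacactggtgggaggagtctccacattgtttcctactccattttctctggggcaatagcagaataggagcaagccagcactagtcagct
EPSTI1: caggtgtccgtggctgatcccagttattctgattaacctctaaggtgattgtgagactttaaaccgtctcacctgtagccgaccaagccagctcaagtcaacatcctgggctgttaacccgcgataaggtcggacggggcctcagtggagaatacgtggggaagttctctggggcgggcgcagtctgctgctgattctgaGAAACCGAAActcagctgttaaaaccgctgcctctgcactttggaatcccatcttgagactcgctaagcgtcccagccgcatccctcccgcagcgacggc

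The repeat separated by 2 bases was found in at least 1 promoter of 6 members, against 4.38% of the 27305 genes with a promoter in the RefSeq table. The repeat separated by 1 base was also found in 6 members, and all 10 members held one or the other. The shares of all genes were 3.87% and 7.83%. These 2 member counts cannot be weighed against those shares, because the spacing by 1 was added after the promoters had been seen. Members also had 17 promoters for 10 genes, against 35116 for 27305 genes in the RefSeq table. A gene with more promoters has more room for a match. *IFI6* had 3 matches of the wider repeat, the first starting at base -156 from the start site. *XAF1* had none of these and 1 match of the narrower repeat, starting at -5, where its letters cross the start site. *EPSTI1*, which had no counts, carried 1 wider repeat at -50, and *IFI16* 1 narrower repeat at -54. The letters thus also stood in promoters of 1 member that was not detected and 1 that was not higher. A second *RSAD2* promoter in the table (chr2:6865635-6865934) shares 165 bases with that of *CMPK2* on the opposite strand and holds 4 narrower repeats. Those starting at -84 and -60 are the same bases as the 2 matches of *CMPK2*, read on the other strand, and they count for both genes. These matches describe letters in a window and not binding.

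**Figure D1:**
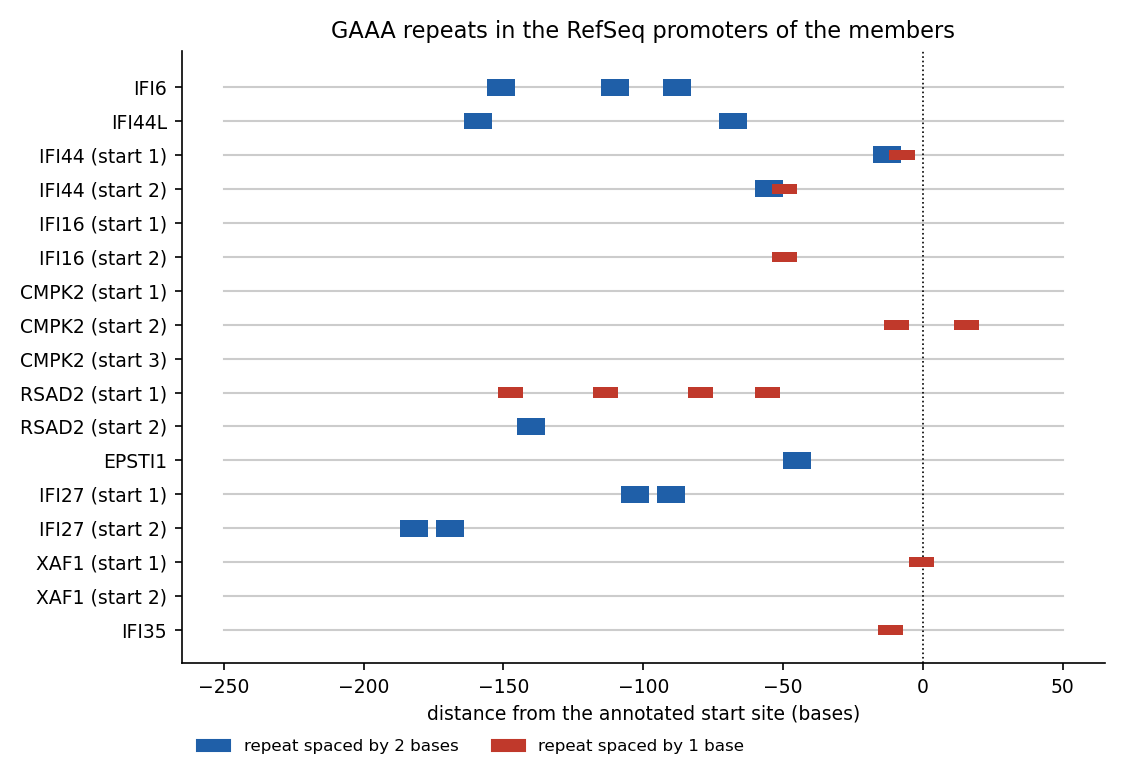
GAAA repeats in the 17 RefSeq promoters of the 10 members, with the distance from the annotated start site in bases on the x axis and 1 line per promoter. Blue bars are repeats separated by 2 bases and red bars repeats separated by 1 base. A reader should see where the repeats lie, with 3 upstream in *IFI6*. The spacing by 1 base was added after the promoters had been seen, so a repeat in each member follows partly from that choice.

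Library totals ranged from 23785164 to 28307591 counts, and TMM normalization factors from 0.976 to 1.02. *RP5-998N21.4* itself had 32 and 33 counts with the empty vector, against 2407 and 2808 with OE (log2 fold change 6.11, adjusted p = 0.0109, edgeR quasi-likelihood). Even this overexpressed gene thus missed the limit of 0.01 for the adjusted p that is used below. Of 13 adrenergic and mesenchymal neuroblastoma markers, 12 had a mean above 1 CPM (counts scaled to the normalized library size), while *TH* was at 0 in every library. The summed level of the 8 adrenergic markers was 364 and 435 CPM in the vector control and 689 and 654 CPM in OE, and that of the 5 mesenchymal markers was 2030 and 2004 CPM against 2528 and 1569 CPM. The mesenchymal sum of OE replicate 1 was raised by *VIM*, which had 31466 counts there and 10869 in OE replicate 2. Without *VIM*, the other 4 summed to 1682 and 1654 CPM in the vector control and to 1274 and 1193 CPM in OE. The part of these shifts in the results was not tested, and in such bulk samples more cells of a type and more RNA per cell cannot be told apart. Of 14 markers of blood, glial, endothelial, epithelial and liver cells, 9 were at 0 in every library, among them *CD3E* and *LYZ*. Their summed level was 12.8 and 13.2 CPM in the vector control and 1.39 and 6.50 CPM in OE, and their part in the results was not tested either. *CD68*, a macrophage marker with 240 and 237 control counts and 2 and 126 in OE, made up most of that sum except in OE replicate 1.

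Of the 10 members, 9 had counts and passed edgeR's filter on low counts, and 8 of these 9 lay higher in both OE libraries than in both vector control libraries. Over all 20528 genes tested, 27.8% lay on that side in the same way. No member lay lower in both OE libraries, as 27.6% of all genes did. The fold changes ranged from 1.45-fold for *IFI35* to 5.94-fold for *XAF1*. *IFI16* was the exception, with groups that overlapped, and *EPSTI1* was not detected. *XAF1* and *IFI6* rose at an adjusted p under 0.05. *IFI27* passed the filter only through the OE libraries, since both of its vector control values lie under the filter's limit of 0.411 CPM, so a difference in it was a condition of its being tested. Without *IFI27*, 7 of 8 tested members lay higher in both OE libraries and the median log2 fold change was 1.02. The median log2 fold change of the 9 genes was 1.08 and that of all genes tested 0.01.

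Standard errors (SE) are on the log2 scale and were worked back from the log2 fold change and the F statistic of edgeR's test. Differential expression was tested with edgeR's quasi-likelihood test on all 20528 genes, with Benjamini-Hochberg adjustment, and a gene was called where it met the study's limits, which are 0.01 for the adjusted p and 0.5 for the size of the log2 fold change. By this rule 0 members were called, as were 0% of all genes, and limma-voom also called 0 members, while DESeq2's Wald test called 7 members higher and 0 lower, against 4.35% and 4.42% of all genes. At an adjusted p under 0.05 with the same fold limit, edgeR's test called 2 members higher, against 0.283% of all genes. Without adjustment, 7 members were higher and 0 lower at p under 0.05, against 10.1% and 10.7% of all genes. *IFI27* is among the 7 in both tests, and without it 6 of 8 members were higher at that p and 6 were called by DESeq2. With any of the 4 libraries left out, 1 group holds a single library, which is assumed to vary like the pair of the other group. In these fits 0 members had an adjusted p under 0.05, and the smallest lay between 0.081 and 0.101. Of all 20528 genes, those under 0.05 that also met the fold limit numbered 0 without either vector control library, 75 without OE replicate 1 and 120 without OE replicate 2, against 122 with all 4 libraries. With the replicate numbers as a block, 0 members and 0 of all genes met these limits, and the log2 fold changes of *XAF1* and *IFI6* were still 2.57 and 2.24. A two-sided exact permutation test of 2 libraries against 2 cannot give p under 0.33, so none was used for single genes.

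**Figure D2:**
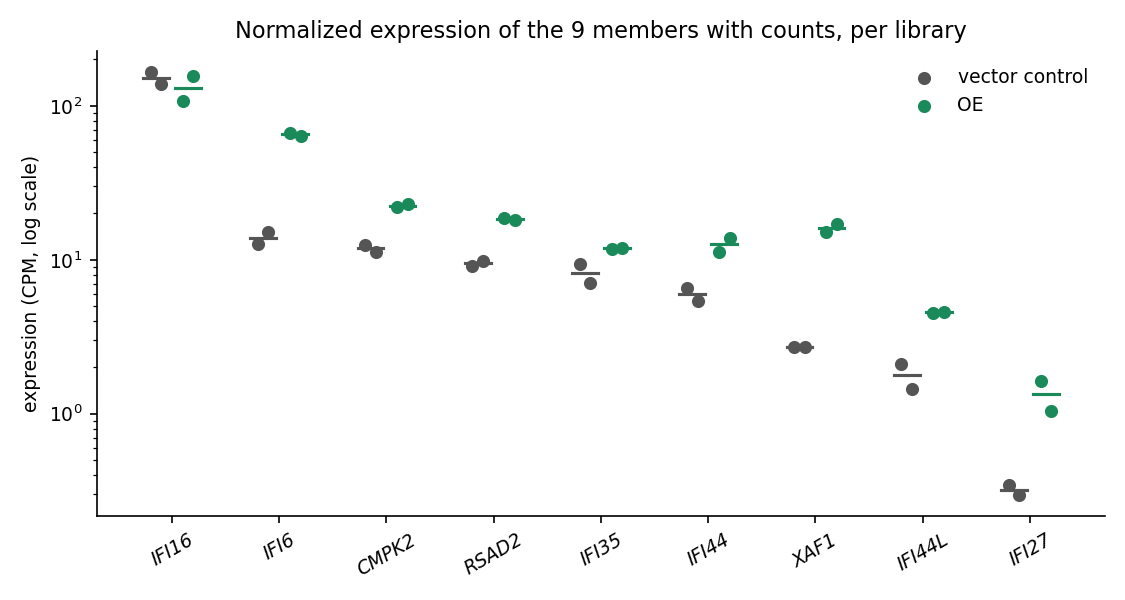
Expression of the 9 members with counts in CPM on a log axis, with 1 point per library, vector control in grey and OE in green, and a line at each mean of 2. The green points lie above the grey points in 8 members and overlap with them in *IFI16*.

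*XAF1* (ENSG00000132530.12, chr17:6658766-6678966 in hg19, plus strand), which counters the apoptosis inhibitor XIAP, showed the largest log2 fold change of the 9 genes. It had 63 and 64 counts with the empty vector, against 381 and 495 with OE. Both OE libraries thus stood far above a control pair that differed by 1.01-fold. Mean expression was 2.71 ± 0.0129 CPM (SD, n = 2) and rose to 16.1 ± 1.36 CPM (SD, n = 2) in OE. The log2 fold change was 2.57 (SE 0.149, adjusted p = 0.0376, edgeR quasi-likelihood). By p-value *XAF1* ranked 55th of 20528 genes. With each library left out the log2 fold change stayed between 2.48 and 2.65, while the adjusted p ran from 1.24e-32 with DESeq2 to 0.286 with the replicate block over the alternatives run. The partner *XIAP* had 3711 and 3695 counts with the empty vector, against 3902 and 889 with OE, so its OE libraries disagreed with each other more than the groups did (log2 fold change -0.77, SE 0.82). The lifted annotation places 2535 of the 6615 exonic bases of *XAF1* opposite the transcript *PRAL*, which has no row in the count table used here. The labels name a library kit that does not mark strand, so reads that lie within those 2535 bases cannot be told apart by strand.

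*IFI6* (ENSG00000126709.10, chr1:27992575-27998723, minus strand), a small membrane protein known to act against cell death and some viruses, had 294 and 356 counts with the empty vector, against 1678 and 1853 with OE. The groups did not overlap, and the OE libraries were within 1.04-fold of each other. It rose 4.71-fold, being at 13.9 ± 1.79 CPM (SD, n = 2) in the control and at 65.5 ± 1.99 CPM (SD, n = 2) under OE (log2 fold change 2.24, SE 0.136, adjusted p = 0.0376, edgeR quasi-likelihood). All of its counts fell on a single transcript, ENST00000361157.6, in every library. A larger log2 fold change was seen in 71 of the 14023 genes whose mean reached 4 CPM. The adjusted p of *IFI6* ran from 4.27e-54 with DESeq2 to 0.296 with the replicate block. The related gene *IFI27* (ENSG00000165949.8, chr14:94571182-94583032, plus strand) was near the limit of detection, with 8 and 7 counts with the empty vector, against 41 and 30 with OE. Its OE libraries were both higher but differed by 1.58-fold from each other. The log2 fold change was 2.04 (SE 0.428, adjusted p = 0.129, edgeR quasi-likelihood), and 1.68 without OE replicate 1. The relatives *IFI27L1* and *IFI27L2*, which flank *IFI27* on both sides, had log2 fold changes of -0.15 (SE 0.176) and -0.07 (SE 0.13).

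*RSAD2* and *CMPK2* lie head to head on chromosome 2, *CMPK2* (ENSG00000134326.7) at chr2:6980701-7006766 on the minus strand and *RSAD2* (ENSG00000134321.7) at chr2:7005688-7038370 on the plus strand. *RSAD2* had 213 and 232 counts with the empty vector, against 473 and 523 with OE. *CMPK2* had 290 and 266 counts with the empty vector, against 555 and 663 with OE. Neither gene's groups overlapped, and the replicates of each condition were within 1.10-fold of each other. The mean level of *RSAD2* was 9.51 ± 0.514 CPM (SD, n = 2), against 18.5 ± 0.544 CPM (SD, n = 2) with OE. Its log2 fold change was 0.96 (SE 0.122, adjusted p = 0.0778, edgeR quasi-likelihood), beside 0.92 for *CMPK2* (SE 0.12, adjusted p = 0.078). In CPM per kilobase of annotated exon, the level of *RSAD2* per level of *CMPK2* was 0.57 and 0.677 in the vector control and 0.661 and 0.612 in OE, so the ratios of the groups overlapped. The annotation gives the pair 351 exonic bases in common on opposite strands, so part of the reads of the pair may have been shared. The cytosolic kinases *CMPK1* and *DTYMK*, which like CMPK2 phosphorylate nucleotides, had log2 fold changes of -0.21 (SE 0.0839) and -0.54 (SE 0.174), and neither passed an adjusted p under 0.05.

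*IFI44L* (ENSG00000137959.11, chr1:79085587-79111830) and *IFI44* (ENSG00000137965.6, chr1:79115481-79129763) lie 3651 bases apart on the plus strand of chromosome 1. *IFI44* had 153 and 126 counts with the empty vector, against 284 and 401 with OE. *IFI44L* had 49 and 34 counts with the empty vector, against 113 and 133 with OE. Both genes were higher in both OE libraries. The log2 fold change was 1.08 for *IFI44* (SE 0.198, adjusted p = 0.111, edgeR quasi-likelihood) and 1.36 for *IFI44L* (SE 0.259, adjusted p = 0.116). The spread of *IFI44L* lay in its control pair, which differed by 1.45-fold, and its log2 fold change was 1.65 without the first and 1.11 without the second of these libraries. *IFI35* (ENSG00000068079.3, chr17:41158757-41166473, plus strand), a leucine zipper protein, had 218 and 166 counts with the empty vector, against 296 and 346 with OE. Its groups did not overlap, but the difference was the smallest of the 8 and was of the order of the spread in the control pair. The log2 fold change was 0.53 (SE 0.192, adjusted p = 0.249, edgeR quasi-likelihood), 0.34 with vector control replicate 2 left out and 0.75 with replicate 1 of that group left out. Its partner *NMI* had at most 14 counts in a library and was not tested.

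*IFI16* (ENSG00000163565.14, chr1:158969758-159024945, plus strand), a DNA sensor of the PYHIN family, was by far the most counted member. It had 3874 and 3240 counts with the empty vector, against 2685 and 4487 with OE. In CPM the libraries were at 166 and 138 in the vector control and at 107 and 155 in OE, so 1 OE library lay below both controls and the other between them. The log2 fold change was -0.22 (SE 0.228, adjusted p = 0.65, edgeR quasi-likelihood), -0.51 without OE replicate 2 and 0.03 without OE replicate 1. Its neighbour and relative *AIM2* had a log2 fold change of -0.52 (SE 0.231), and the relatives *MNDA* and *PYHIN1* were at 0 in every library. The annotation places *PYDC5* opposite 425 exonic bases of *IFI16*, and *PYDC5* has no row in the count table used here. *EPSTI1* (ENSG00000133106.10, chr13:43460524-43566407, minus strand) had 0 counts in all 4 libraries on each of its 10 listed transcripts. With 3 counts taken as the most that 0 observed counts allow, its level was at most 0.104 to 0.129 CPM, a bound on counting error only. *PSMB8* and *PSMB9*, subunits of the immunoproteasome on the pathway list, were also at exactly 0 in every library, and whether such zeros come from the counting step was not tested.

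**Figure D3:**
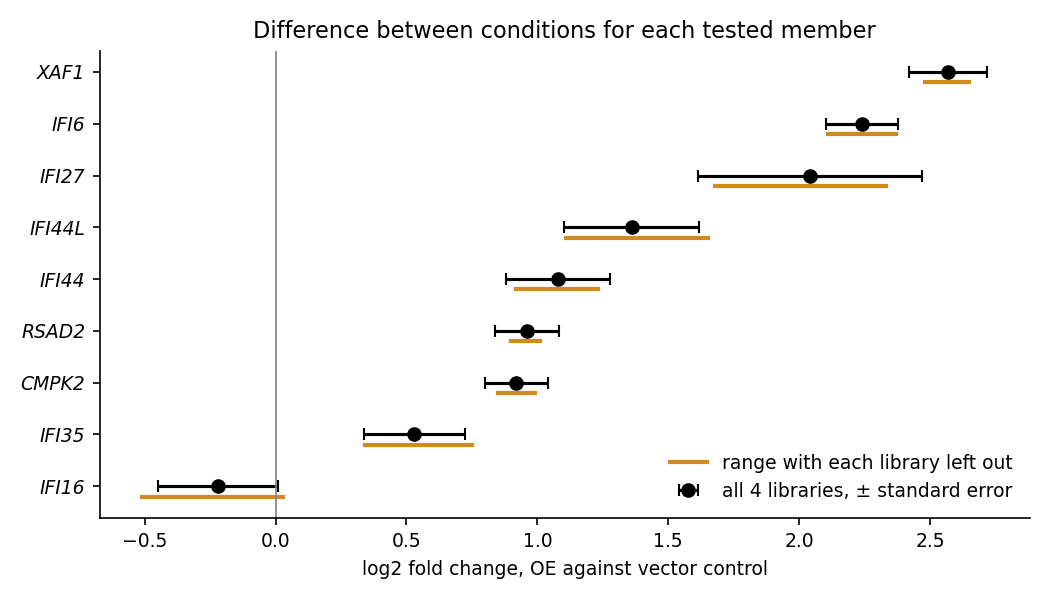
Log2 fold change of OE against vector control for the 9 tested members, all 4 libraries with the standard error in black and the range with each library left out in orange. *XAF1* and *IFI6* stand highest at 2.57 and 2.24 with short bars, and the range of *IFI16* crosses 0.

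Levels can be compared between genes only per length, here as CPM per kilobase of annotated exon, a scale that understates genes with many alternative exons. In the vector control *IFI16* was highest, at 28.7, followed by *IFI6* at 14.8, *IFI35* at 4.19, *IFI44* at 2.93, *CMPK2* at 2.71, *RSAD2* at 1.68, *XAF1* at 0.41, *IFI44L* at 0.153 and *IFI27* at 0.0776. In that order only *IFI44* and *CMPK2* had libraries that overlapped, from 2.63 to 3.22 and from 2.58 to 2.84. In OE *IFI6* stood first at 69.9, above *IFI16* at 24.8. *IFI44* at 6.18 and *IFI35* at 6.07 overlapped, and so did *IFI44L* at 0.392 and *IFI27* at 0.323. *XAF1*, at 2.44 in OE, came below *RSAD2* in both groups, and the ratio of *IFI6* to *XAF1* was 33.0 and 39.3 in the vector control and 31.1 and 26.5 in OE.

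The counts of several members sat on different transcripts in different libraries. Of the 106 transcripts listed for the 10 genes, 31 had counts, and 10 of these had counts in all 4 libraries. There were 12 with counts in OE only, of which 5 had counts in both OE libraries and 7 in just 1 of them, and 3 with counts in the vector control only. The 12 and the 3 are 38.7% and 9.68% of the 31, against 17.3% and 14.6% of the 61156 transcripts with counts in the whole table. Of the 10570 transcripts with counts in OE only in the whole table, 2056 had counts in both OE libraries and 8514 in just 1. In *IFI44L* the transcripts differed by condition. All of its 49 and 34 control counts were on ENST00000486882.1, annotated as a retained intron, which had 0 counts in OE. In OE, 91 and 106 counts were on ENST00000476521.1, annotated as a target of nonsense-mediated decay, which had 0 counts in the control. On its most counted transcript alone, the log2 fold change of *IFI44L* was 9.52 in place of 1.36, a fitted value that rests on the control zeros. *IFI35* had 35 and 50 counts in OE on ENST00000246911.2, a retained intron with 0 control counts, while its coding transcript ENST00000415816.2 had 212 and 166 counts in the control and 261 and 296 in OE (log2 fold change 0.35).

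In *IFI16* they differed between the OE libraries. In OE replicate 2, 3455 of its 4487 counts were on the coding transcript ENST00000368131.4, which had 0 counts in the other 3 libraries. Retained-intron transcripts held 46.8% of its counts in vector control replicate 1 (95% Wilson interval from 45.2% to 48.3%) and 44.7% in replicate 2 (from 43.0% to 46.4%). In OE they held 61.6% in replicate 1 (from 59.7% to 63.4%) and 5.17% in replicate 2 (from 4.56% to 5.86%). The OE libraries thus lay on opposite sides of the control pair. These intervals cover counting error only, since reads were counted without molecular identifiers. *XAF1* had most of its counts on the coding transcript ENST00000361842.3, with 51 and 40 in the control and 344 and 364 in OE. A decay-type transcript of *XAF1*, ENST00000575369.1, had 131 counts in OE replicate 2 and 0 in OE replicate 1. The processing notes name StringTie without its role, and how reads were divided among transcripts is not given in the sources used here.

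**Figure D4:**
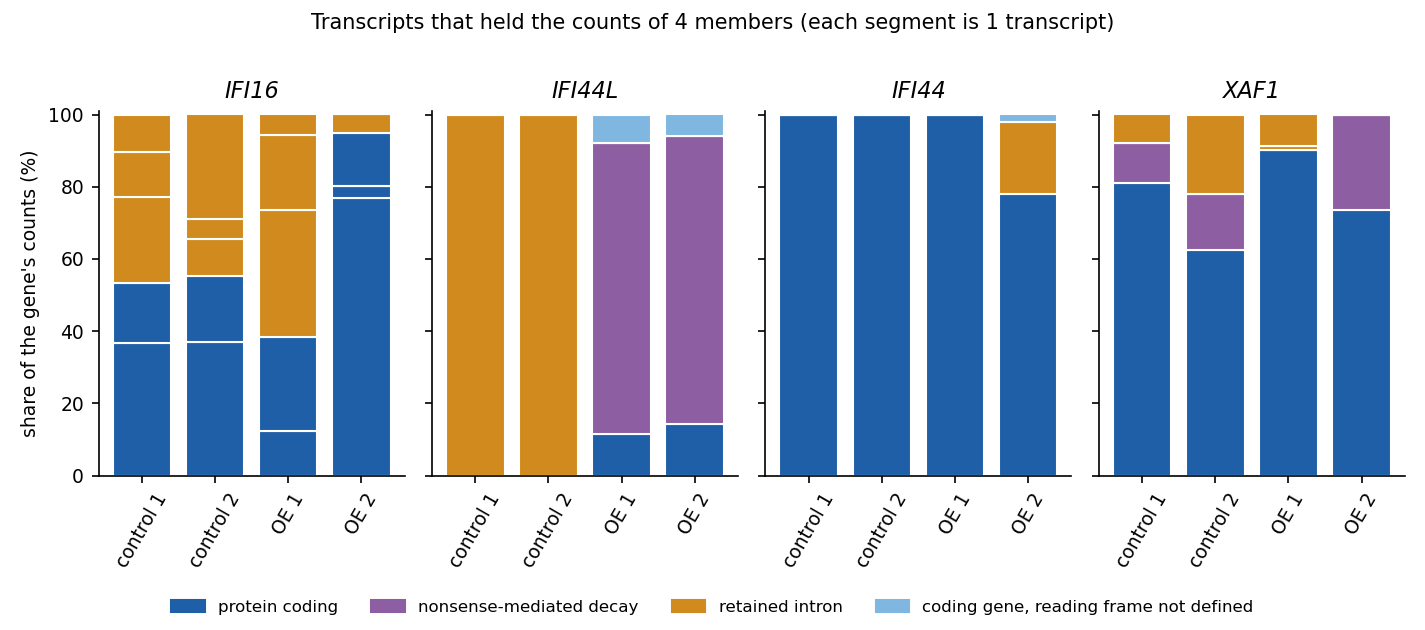
Share of a gene's counts on each transcript in percent, for *IFI16*, *IFI44L*, *IFI44* and *XAF1*, with 1 bar per library and 1 segment per transcript, coloured by the class in the lifted annotation. The control and OE bars of *IFI44L* share no colour, and the bar of OE replicate 2 stands apart in *IFI16*.

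The genes around the members were read next, by taking on each side the nearest tested gene that does not overlap the member. Apart from members, these were 16 genes, and edgeR's test gave 0 of them an adjusted p under 0.05. At an unadjusted p under 0.05 there were 0 higher and 1 lower, against 10.1% and 10.7% of all genes, so the lower count was not above the background. The 1 lower gene was *PTGFR*, named here after its value was seen, which lies 79201 bases from *IFI44L* and stood at a log2 fold change of -0.53 (SE 0.135, adjusted p = 0.16, edgeR quasi-likelihood). Their median log2 fold change was -0.03.

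The other genes of the pathway were read from a list of 66 genes, of which 58 were tested. In edgeR's test 0 of them were called at the study's thresholds or at an adjusted p under 0.05, and limma-voom also called 0 at the study's thresholds, while DESeq2 called 12 higher and 2 lower, against 4.35% and 4.42% of all genes. At an unadjusted p under 0.05, 23 were higher and 5 lower, against 10.1% and 10.7% of all genes. The higher count was 16 without vector control replicate 1, 15 without replicate 2 of that group, 16 without OE replicate 1 and 13 without OE replicate 2, where from 6.09% to 9.22% of all genes were higher at that p. With the replicate numbers as a block it was 14, against 7.22% of all genes. The median log2 fold change of the 58 was 0.31, against 0.01 over all genes. *IFNLR1* and *IRF9* passed the filter only through the vector control, and without them 23 of 56 were higher and 4 lower at that p, with a median of 0.33. Of the 5 interferon genes on the list, only *IFNE* was tested, with a log2 fold change of -0.71 (SE 0.178). *IFNB1* had 0 and 2 counts with the empty vector, against 13 and 0 with OE, and *IFNG* had 0 in every library. The median of the 6 receptor chains was -0.09, with or without *IFNLR1*, and *IL10RB*, a shared receptor chain, stood at -0.58 (SE 0.129, adjusted p = 0.138). *IFNAR1* had 466 and 521 counts in the control and 470 and 3332 in OE, so its mean rests on OE replicate 2.

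Among 9 signalling genes the median was -0.02, and 0.04 without *IRF9*. *STAT2*, chosen with *IFNE*, *IFNB1*, *IFNG*, *IFNAR1* and *UBE2L6* after their values were seen, had a log2 fold change of 0.28 (SE 0.0733), while its DNA-binding partner *IRF9* was at -1.99 on at most 24 counts. Among the inhibitors, *SOCS3* stood at -0.36 (SE 0.079, adjusted p = 0.134). Of 33 other effector genes tested, the targets of the pathway, 32 were higher and 1 lower in mean, with a median of 0.50. At an unadjusted p under 0.05, 20 of them were higher and 0 lower, against 10.1% and 10.7% of all genes. The 5 with the smallest p among the higher genes of the list were all effectors. *IFIT3* had a log2 fold change of 0.97, *OAS3* of 1.18, *MX2* of 2.15, *IFITM3* of 1.04 and *DTX3L* of 0.51, with adjusted p from 0.0615 to 0.0931. The single lower effector was *UBE2L6*, with 141 counts in OE replicate 1 and from 1836 to 2472 in the other 3 libraries.

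**Figure D5:**
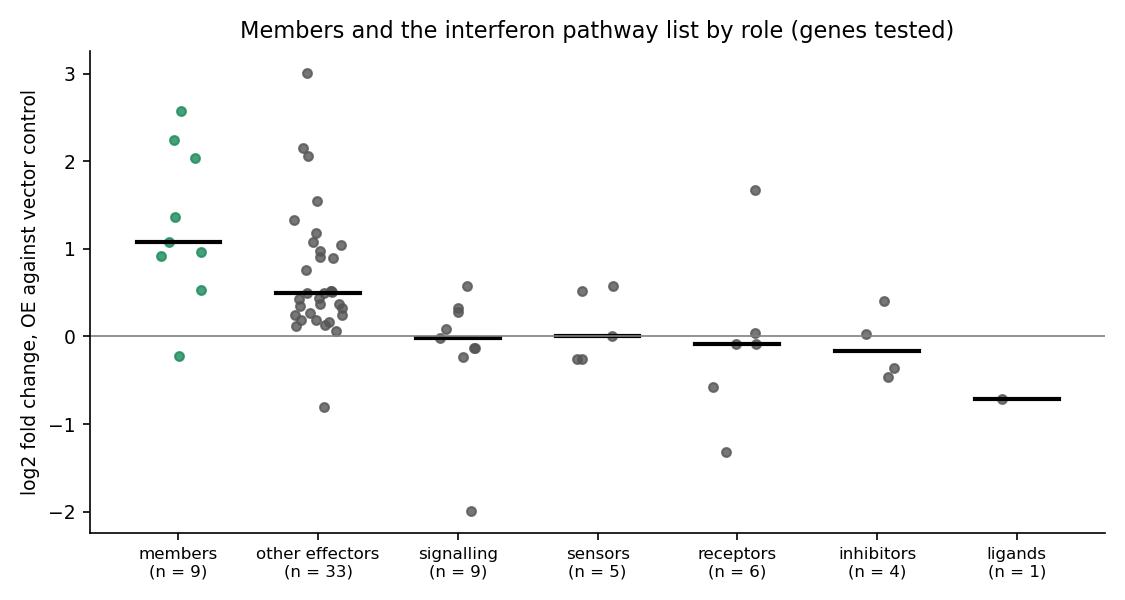
Log2 fold change of OE against vector control for the 9 tested members in green and for the 58 tested genes of the pathway list in grey, grouped by role, with 1 point per gene and a black line at the median. The members centre on 1.08 and the other effectors on 0.50, and the medians of the signalling, sensor, receptor and inhibitor genes lie between -0.17 and 0.

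The genes whose pattern was most like that of the members were sought among the 14016 other genes whose mean reached 4 CPM, by the root mean square distance over the 4 libraries from the members' median log2 CPM, each gene centred on its vector control mean. The nearest was *RIMBP2*, a protein of the presynaptic active zone, at a distance of 0.0238, with 387 and 358 counts with the empty vector, against 799 and 1044 with OE. It was followed by *SCN3B*, a sodium channel subunit, *PCYOX1*, *DACH1* and *TOX*, at distances up to 0.0526 and with log2 fold changes from 1.05 to 1.13. None of the 5 is in the pathway list. With 4 libraries in 2 groups, such a distance describes little more than the size of the difference between the groups.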

How the data were processed

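Whole-number counts per Ensembl transcript, without normalization, were deposited for 4 libraries. Per the study's methods, the authors used Trimmomatic for trimming and Bowtie2 for alignment against hg19. The submitters' processing notes also name Bowtie2 2.0.4, Picard 2.21.6, StringTie 2.1.6 and DESeq2. The kit in the labels does not mark strand. The tool that made the counts, its strand setting and the annotation release are not given in the sources used here, and counts that a tool divides among transcripts are estimates. The counts of 196520 transcripts were summed per gene.

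Genes kept by edgeR's filterByExpr (minimum count 10) received TMM factors and entered the quasi-likelihood test of edgeR 4.0.16 (R 4.3.3), 2 libraries against 2, two-sided, without covariates and with Benjamini-Hochberg adjustment over all genes tested. The study's methods name DESeq2, which was run as an alternative (DESeq2 1.42.0), as was limma-voom (limma 3.58.1). Other alternatives were RLE and upper-quartile normalization, other filters, a block for the replicate number, fits without each library or without mitochondrial genes, and the transcript of highest mean count. The scripts were tested on simulated counts.

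The members and the gene lists were chosen with earlier results of these data known. The text names all members, their relatives, the 5 higher and 3 lower pathway genes with the smallest p, and the 5 genes nearest in pattern. Other named genes, such as *CD68*, *VIM*, *IFNLR1*, *PSMB8* and *PSMB9*, were chosen after their values were seen. *PECAM1*, a marker on the list, was not used here. GENCODE as lifted to GRCh37, the build of hg19, gave positions and transcript classes, and held 26 of the 31 member transcripts with counts and 19890 of the 20528 tested genes. The missing ones include all those of *IFI27*. Figures were drawn with matplotlib 3.10.9.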

Additional observations from a re-analysis of the deposited data

How the results depend on the processing

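The 8 higher members were higher under every alternative in which they were tested, and depth limits the smallest of them, *IFI27*, with 7 to 41 counts per library. Of the single-gene values, 118 kept their direction and side of the threshold, and 9 passed it only under the alternative, which were 7 members and *RP5-998N21.4* with DESeq2, and *RP5-998N21.4* without the filter on low counts. DESeq2 called 7 members higher where edgeR's test called 0, and 12 genes of the pathway list higher and 2 lower where edgeR's test called 0 of each. Of all genes, DESeq2 called 4.35% higher and 4.42% lower, and edgeR's test 0%. Without *IFI27*, which passed the filter only through the OE libraries, DESeq2 called 6 of 8 members higher. At an adjusted p under 0.05 with the same fold limit, edgeR's test called 2 members higher, against 0.283% of all genes. With the replicate numbers of the titles as a replicate block, 0 members had an adjusted p under 0.05, against 2 without the block, and 0 of all genes had such a p with a log2 fold change beyond 0.5, against 122, while *XAF1* and *IFI6* were at the same log2 fold changes of 2.57 and 2.24. Under the block the pathway list had 14 genes higher at an unadjusted p under 0.05, against 23, and 7.22% of all genes were higher at that p, against 10.1%. The numbers are not known to pair the libraries, and the deviations of same-numbered libraries from their group means had a correlation of -0.0216 over 20528 genes. With the transcript of the highest mean count, 15 of 56 pathway genes were higher at that p, against 9.14% of all genes, *IFI16* and *IFI27* were not tested, and 0 members and 9 of 20164 genes had an adjusted p under 0.05 and met the fold limit. With each library left out in turn, the number of pathway genes at that p was from 13 to 16 higher and from 2 to 6 lower, against from 6.09% to 9.22% and from 7.54% to 9.82% of all genes, and the number of members with the remaining OE libraries below the remaining controls was from 0 to 1, the latter being *IFI16*. The log2 fold change of *IFI16* was from -0.51 without OE replicate 2 to 0.03 without OE replicate 1. The fits without a library rest on fewer libraries, with 1 group of a single library, and otherwise the cause of these differences was not tested.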
